A study of Mus musculus with 16 samples.

Results

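The genes described here are 10 markers of macrophages and other leukocytes in the mouse kidney, named by their symbols: Ptprc, C1qa, C1qb, C1qc, Cd68, Lyz2, Csf1r, Laptm5, Tyrobp and Adgre1. By Ensembl ID, 9 of them had a row in the authors' table of 13430 genes, and Tyrobp is not analysed here. All 9 passed the filter on low values. The table gives 1 RNA-seq library for each of 16 female C57BL/6 mice, aged 2 to 3 months, made from a 3 mm slice through the middle of the kidney. Each group held 4 mice: IRR(-/-) on bicarbonate, IRR(-/-) on water, wild type on bicarbonate and wild type on water. Bicarbonate was 250 mM NaHCO3 at pH 8.5 in the drinking water for 7 days, and every mouse fasted for 12 h with its drink before the kidney was taken. IRR is the insulin receptor-related receptor encoded by Insrr, an alkali sensor of the collecting duct, and the labels do not say how the gene was disrupted.

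The kidney holds a network of resident macrophages between its tubules and capillaries, which take up debris and immune complexes and can be joined by monocytes from the blood. These macrophages depend on signalling through the receptor CSF1R, carry the surface receptor encoded by Adgre1, and make the complement recognition molecule C1q, which binds antibody complexes and dying cells and starts the classical complement pathway. C1q is built from A, B and C chains, encoded by neighbouring genes. Because a slice of whole kidney was sequenced, fewer leukocytes and less RNA per leukocyte cannot be told apart in any value below.

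The C1q chain genes lie side by side on the minus strand of chromosome 4 in GRCm38, with C1qb at chr4:136880129-136886187, C1qc at chr4:136889804-136893065 and C1qa at chr4:136895917-136898803. Laptm5 lies on the plus strand of the same chromosome at chr4:130913125-130936141. The other genes with a position given here are Ptprc at chr1:138062861-138175708, Cd68 at chr11:69664213-69666153, Lyz2 at chr10:117277331-117282321 and Adgre1 at chr17:57358691-57483527. The span of Ptprc overlaps A130071D04Rik, and that of Csf1r overlaps Hmgxb3 and Mir6983. Whether the counting used strand is not stated in the labels, so reads of overlapping genes may not be separated. Lyz2 has a near-identical neighbour, Lyz1, which is not analysed here, so the split of reads between them is uncertain.

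The RefSeq promoters of 4 members are shown. Lyz2 and Cd68 had the lowest and highest genotype differences of the members on each drink. In the fit of all libraries these passed only in an average added after the values had been seen. C1qb and C1qc belong to 1 gene cluster. Each promoter is the 250 bases before the RefSeq gene start, 5′ to 3′ on the gene's strand in build GRCm38.p6. The positions above are from GENCODE, whose starts differ, so the windows of Lyz2 and C1qc reach into the spans given there. Capitals mark GGAAGT or its reverse complement ACTTCC. These letters are the core bound by ETS family factors, among them PU.1, the factor of macrophage and B cell development.
Lyz2, chr10:117282273-117282522, minus strand: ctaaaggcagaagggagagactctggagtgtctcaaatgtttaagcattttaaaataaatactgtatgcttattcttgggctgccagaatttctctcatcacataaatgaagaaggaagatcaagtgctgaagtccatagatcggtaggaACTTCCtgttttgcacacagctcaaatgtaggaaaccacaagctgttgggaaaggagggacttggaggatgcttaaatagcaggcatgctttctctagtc
Cd68, chr11:69666171-69666420, minus strand: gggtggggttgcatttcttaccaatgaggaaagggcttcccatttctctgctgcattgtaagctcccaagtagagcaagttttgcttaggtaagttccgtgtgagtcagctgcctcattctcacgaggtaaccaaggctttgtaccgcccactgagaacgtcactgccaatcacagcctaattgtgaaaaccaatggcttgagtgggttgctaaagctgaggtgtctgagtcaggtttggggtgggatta
C1qb, chr4:136886201-136886450, minus strand: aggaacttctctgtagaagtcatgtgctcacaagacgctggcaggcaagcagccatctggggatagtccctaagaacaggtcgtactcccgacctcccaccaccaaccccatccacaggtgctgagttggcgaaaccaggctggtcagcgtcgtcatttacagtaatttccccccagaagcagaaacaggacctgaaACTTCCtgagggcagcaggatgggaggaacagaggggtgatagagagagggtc
C1qc, chr4:136892915-136893164, minus strand: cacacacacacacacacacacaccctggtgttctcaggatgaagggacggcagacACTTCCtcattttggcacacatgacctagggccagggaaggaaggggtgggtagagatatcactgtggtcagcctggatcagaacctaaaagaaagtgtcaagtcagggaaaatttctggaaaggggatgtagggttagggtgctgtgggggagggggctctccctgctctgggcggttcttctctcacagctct

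The table held a promoter for 6 members: Ptprc, C1qb, C1qc, Cd68, Lyz2 and Laptm5. GGAAGT was found on either strand before a start of 5 of these 6, the exception being Cd68. Among all 32817 promoters of this length, 19.7% held it. The letters were chosen after the sequences had been read, so the share is a description, and a match is not evidence of binding.

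Before the comparisons, the libraries were checked against their labels. Insrr was lower in every library labelled IRR(-/-), at 3.31 to 4.11 RPKM, than in every wild-type library, at 4.20 to 6.73 RPKM (n = 8 each). The gap between these ranges was narrow, and 9.15% of all genes tested did not overlap between the 8 libraries of each genotype. The level of Insrr therefore does not by itself settle the labels. RPKM is a read count scaled by transcript length and by library size. Summed RPKM per library was 2420000 to 2930000 in IRR(-/-) mice and 1360000 to 1600000 in wild-type mice, while median RPKM was 8.44 to 8.78 and 8.66 to 8.92 in the same order. No batch is named in the labels, and one shared by all mice of a genotype cannot be told apart from the genotype. Proximal tubule markers summed to between 5060 and 26600 RPKM per library, against 46.7 to 69.9 RPKM for the 9 leukocyte markers. Of the tubule markers, Kap alone had group means of 6440 to 13600 RPKM, where the sums averaged 10900 to 18500 RPKM per group.

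The leukocyte markers were low to moderate in abundance in all 16 libraries, and none was listed at 0 in any. Csf1r averaged 12.9 ± 1.80 RPKM (SD, n = 16) and was the highest of the 9 in 10 libraries. Lyz2, the myeloid lysozyme that breaks down bacterial walls, averaged 11.2 ± 3.33 RPKM and was the highest in 4. C1qb followed at 7.83 ± 1.18 RPKM, Laptm5 at 7.16 ± 2.22, C1qa at 5.70 ± 1.09 and C1qc at 4.54 ± 0.813. Ptprc, which encodes the CD45 phosphatase of all nucleated blood cells, averaged 2.95 ± 0.455 RPKM, and Cd68, a lysosomal glycoprotein of phagocytes, 2.68 ± 0.663. Adgre1, the gene of a surface receptor used as a standard macrophage marker, averaged 1.52 ± 0.280 RPKM and was the lowest of the 9 in all 16 libraries. The ranges of neighbours in this order overlapped in every case, and Csf1r and Lyz2, C1qb and Laptm5, and Ptprc and Cd68 differed by less than their SD.

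**Figure D1:**
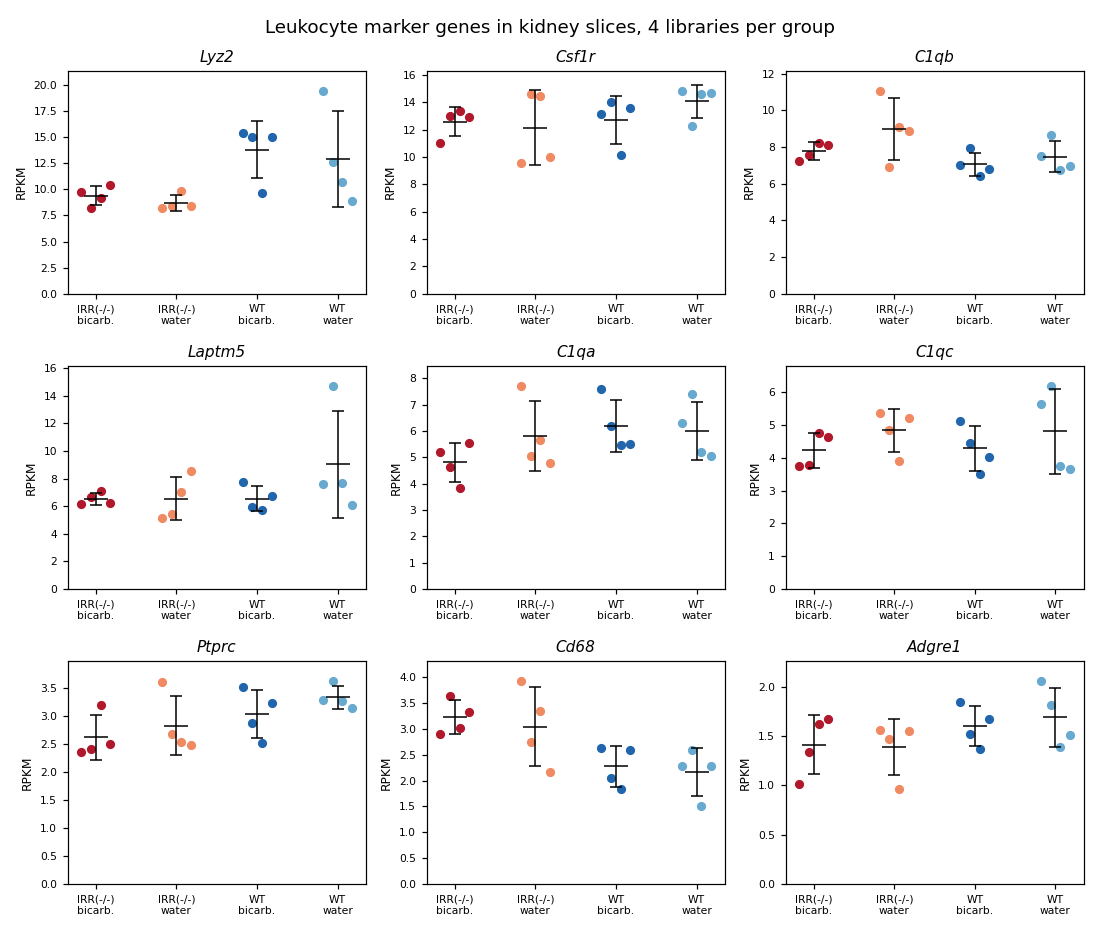
RPKM of the 9 marker genes (y axis, from 0) in each library of the 4 groups (x axis), with points for libraries and black bars for the mean ± SD. Lyz2 lay between 8.24 and 10.5 RPKM in IRR(-/-) mice and reached 19.4 RPKM in wild type, and Cd68 was higher in every IRR(-/-) library on bicarbonate than in any wild-type library on that drink.

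The effect of IRR loss was read on each drink. None of the 9 markers passed the test on water or on bicarbonate (limma on log2(RPKM + 0.1), adjusted p under 0.05 over all genes), against 21.9% and 18.4% of the 12943 genes tested. At an unadjusted p under 0.05 there were 2 of 9 on each drink, Lyz2 and Cd68 both times, against 34.3% of all genes on water and 31.4% on bicarbonate. The median log2 difference of the 9 was -0.23 on water and -0.02 on bicarbonate, beside -0.05 and -0.02 over all genes. For all 9 genes the 95% intervals lay within 0.52-fold and 1.84-fold on water, and within 0.52-fold and 1.88-fold on bicarbonate. Groups did not overlap for 0 of 9 on water, against 23.8% of all genes.

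Lyz2 had the lowest difference on each drink. Its levels were 9.73, 8.25, 9.18 and 10.5 RPKM in the 4 IRR(-/-) mice on bicarbonate, against 15.4, 15.0, 9.68 and 15.1 RPKM in wild type on bicarbonate. Only the library of wild-type replicate 3 fell within the IRR(-/-) range. On water the levels were 8.24, 8.39, 9.85 and 8.37 RPKM in IRR(-/-) mice, against 19.4, 12.7, 10.7 and 8.92 RPKM in wild type. The wild-type values were spread widely here and the lowest of them lay inside the IRR(-/-) range. In limma the log2 difference on bicarbonate was -0.53 ± 0.20 (SE, adjusted p = 0.0789). That on water was -0.51 ± 0.20 (adjusted p = 0.0831).
It passed the test on bicarbonate without wild-type replicate 3 (-0.69, adjusted p = 0.0231) or with array weights (-0.62, adjusted p = 0.0150), and on water without wild-type replicate 4 (-0.66, adjusted p = 0.0264). Over all alternatives the difference ran from -0.69 to -0.47 on bicarbonate (adjusted p up to 0.176) and from -0.66 to -0.29 on water (adjusted p up to 0.233), the last without wild-type replicate 1.

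Lyz2 is also made by monocytes and neutrophils of the blood, whose RNA comes with the slice. The 5 genes on the list of red blood cells, which are 4 haemoglobin genes and the haem synthesis gene Alas2, summed to 234 to 612 RPKM in IRR(-/-) mice on bicarbonate and 811 to 1550 RPKM in wild type on bicarbonate. On water the sums overlapped, at 373 to 2070 RPKM in IRR(-/-) mice and 501 to 1570 RPKM in wild type. Of 10 neutrophil markers, 1 was described here, the receptor gene Csf3r. It lay below the 0.5 RPKM of the filter in every library, so no neutrophil marker was tested. Csf3r was at 0.181 to 0.324 RPKM in IRR(-/-) mice on bicarbonate and 0.242 to 0.429 RPKM in wild type on bicarbonate. On water, where Lyz2 had a like difference, Csf3r was at 0.197 to 0.281 RPKM in IRR(-/-) mice and 0.124 to 0.249 RPKM in wild type. Their part in the Lyz2 values was not tested.

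Cd68 had the highest difference on each drink, opposite in sign to Lyz2. Its levels were 2.91, 3.64, 3.03 and 3.33 RPKM in IRR(-/-) mice on bicarbonate, against 2.63, 2.06, 1.83 and 2.59 RPKM in wild type on bicarbonate. These groups did not overlap, the 1 case among the 9 markers, where 22.8% of all genes showed no overlap. On water Cd68 stood at 3.92, 2.74, 3.35 and 2.16 RPKM in IRR(-/-) mice, against 2.28, 2.60, 1.503 and 2.29 RPKM in wild type, and the lowest IRR(-/-) library lay below 3 of the wild-type libraries. In limma the log2 difference on bicarbonate was 0.49 ± 0.20 (SE, adjusted p = 0.0949). That on water was 0.46 ± 0.20 (adjusted p = 0.106). It passed on water without IRR(-/-) replicate 4 (0.61, adjusted p = 0.0382), and stood at 0.30 there with the trend on transcript length and GC content removed (adjusted p = 0.334).

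**Figure D2:**
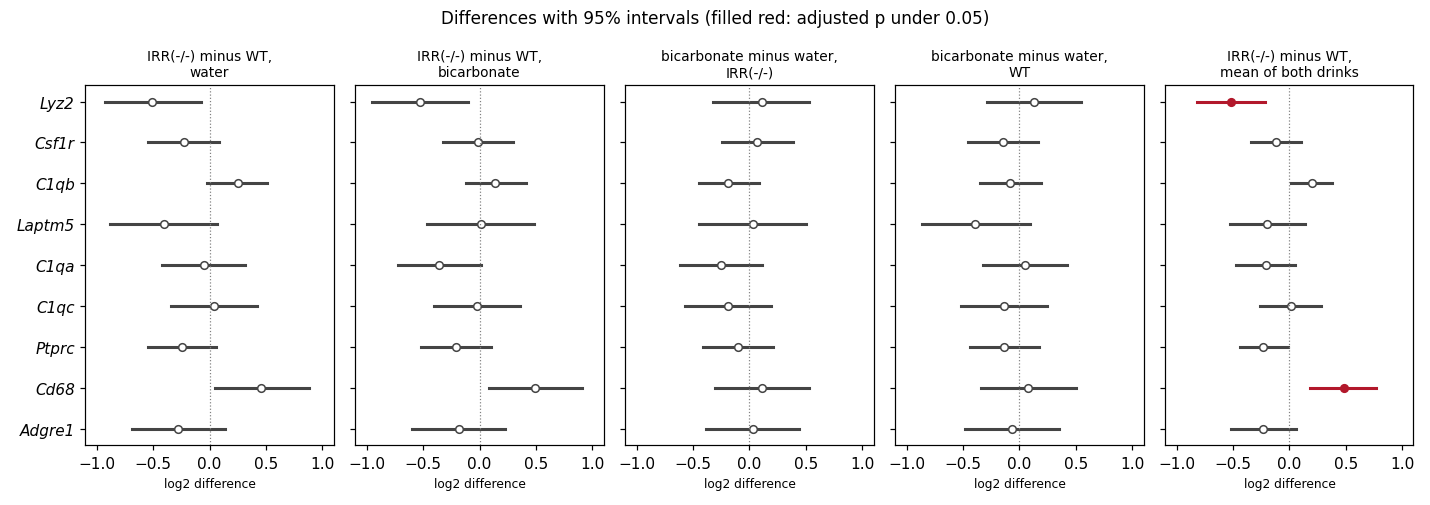
Log2 difference in RPKM of each marker (x axis) with its 95% interval, in 5 panels for the 2 genotype comparisons, the 2 drink comparisons and the genotype difference averaged over both drinks. The intervals of Lyz2 lie below 0 and those of Cd68 above 0 in all 3 genotype panels, with both called in the average alone, while every interval of the drink panels includes 0.

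The mean of both genotype differences, which sets 8 IRR(-/-) libraries against 8 wild-type libraries, was added after the values had been seen. In it 2 of the 9 markers passed, against 33.7% of all genes, and 4 of 9 had an unadjusted p under 0.05, against 42.9%. The 8 libraries of each genotype did not overlap for 0 of 9, against 9.15% of all genes. Lyz2 was lower in IRR(-/-) mice by this measure, with a mean of 9.06 ± 0.870 RPKM in the knockouts and 13.4 ± 3.53 RPKM in wild type (SD over 8 mice each; log2 difference -0.52 ± 0.14, SE, limma adjusted p = 0.0103). Cd68 was higher, with a mean of 3.13 ± 0.551 RPKM in the knockouts and 2.22 ± 0.404 RPKM in wild type (log2 difference 0.48 ± 0.14, adjusted p = 0.0148), but not with the trend on transcript length and GC content removed (0.37, adjusted p = 0.0621). The pan-leukocyte gene Ptprc had a log2 difference of -0.23 ± 0.10 (adjusted p = 0.103) and did not pass, and the macrophage receptor genes Csf1r and Adgre1 had -0.12 ± 0.10 and -0.23 ± 0.14 (adjusted p = 0.402 and 0.221). Ptprc passed without IRR(-/-) water replicate 1 (-0.29, adjusted p = 0.0315), and its other alternatives reached -0.10 (adjusted p = 0.490).

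The genes of membrane proteins, Adgre1, Csf1r and Laptm5, overlapped between all groups. Adgre1 was at 1.02, 1.34, 1.62 and 1.68 RPKM in IRR(-/-) mice on bicarbonate and 1.85, 1.52, 1.37 and 1.67 RPKM in wild type on bicarbonate. On water it was at 1.56, 1.47, 0.968 and 1.55 RPKM in IRR(-/-) mice and 2.05, 1.81, 1.39 and 1.51 RPKM in wild type. The lowest values were those of 1 IRR(-/-) library on each drink, and the highest was in wild type on water. Csf1r, the receptor for the macrophage growth factors CSF1 and IL-34, averaged 12.6 ± 1.05 RPKM in IRR(-/-) mice and 12.7 ± 1.76 RPKM in wild type on bicarbonate, and 12.2 ± 2.77 RPKM in IRR(-/-) mice and 14.1 ± 1.21 RPKM in wild type on water (SD, n = 4 each). In the IRR(-/-) mice on water its values formed 2 pairs, 9.53 and 10.01 RPKM against 14.6 and 14.5 RPKM. Laptm5, a lysosomal membrane protein of haematopoietic cells, averaged 6.54 ± 0.428 RPKM in IRR(-/-) mice and 6.54 ± 0.921 RPKM in wild type on bicarbonate. On water it averaged 6.55 ± 1.58 RPKM in IRR(-/-) mice and 9.02 ± 3.86 RPKM in wild type, where replicate 2 stood at 14.7 RPKM and the others at 6.07 to 7.71 RPKM. Its genotype difference on water was -0.40 ± 0.22 (SE, limma adjusted p = 0.217), and -0.14 without that library (adjusted p = 0.613).

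The C1q chain genes had genotype differences of either sign, none of which passed the test. C1qa averaged 4.81 ± 0.749 RPKM in IRR(-/-) mice and 6.19 ± 0.987 RPKM in wild type on bicarbonate (log2 difference -0.36 ± 0.17, SE, limma adjusted p = 0.169). C1qb averaged 7.79 ± 0.476 RPKM in IRR(-/-) mice and 7.05 ± 0.645 RPKM in wild type on bicarbonate (0.14 ± 0.13, adjusted p = 0.472), and C1qc 4.23 ± 0.544 RPKM in IRR(-/-) mice and 4.29 ± 0.687 RPKM in wild type (-0.02 ± 0.18, adjusted p = 0.965). On water the log2 differences were -0.05 for C1qa, 0.25 for C1qb and 0.04 for C1qc, with adjusted p from 0.180 to 0.908. C1qb passed on water without IRR(-/-) replicate 2 (0.37, adjusted p = 0.0358), but stood at 0.14 without IRR(-/-) replicate 1 (adjusted p = 0.457) and at 0.01 with the trend on length and GC content removed (adjusted p = 0.982).

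The ratios of these chains within each library were examined after the levels had been seen and are given without a test. C1qb over C1qa was 1.39, 1.63, 2.15 and 1.46 in IRR(-/-) mice on bicarbonate, against 0.92, 1.29, 1.18 and 1.24 in wild type on bicarbonate. The groups did not overlap on this drink, where 22.8% of all single genes showed no overlap either. No such share was computed for ratios. On water the ratio was 1.44, 1.37, 1.60 and 1.86 in IRR(-/-) mice, against 1.20, 1.17, 1.30 and 1.38 in wild type, where the highest wild-type library passed the lowest IRR(-/-) library. The other ratios overlapped on each drink. C1qc over C1qa was 0.69 to 1.24 in the 8 IRR(-/-) libraries and 0.64 to 0.90 in the 8 wild-type libraries, and C1qb over C1qc was 1.42 to 2.32 and 1.34 to 1.90 in the same order. In 15 of 16 libraries C1qb was the highest of the chains. The longest transcripts are 1040 nt for C1qa, 1088 nt for C1qb and 1203 nt for C1qc, with GC contents of 59.5%, 57.4% and 57.5%. Genes of 1001 to 1500 nt had median log2 genotype differences of 0.04 on water and -0.02 on bicarbonate, and genes of up to 1000 nt 0.38 and 0.21. With the trend on length and GC content removed, the difference averaged over both drinks was -0.39 for C1qa, 0.03 for C1qb and -0.11 for C1qc, against -0.21, 0.20 and 0.01 with it kept.

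**Figure D3:**
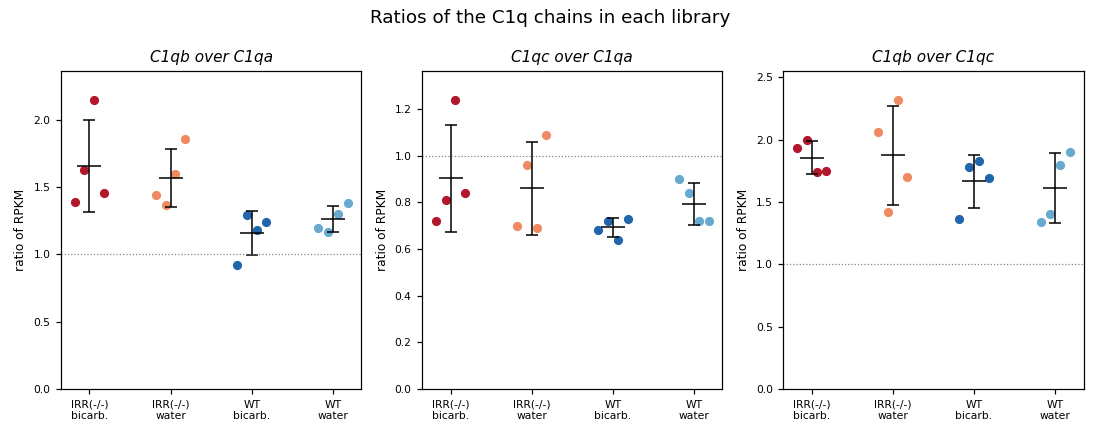
Ratio of RPKM between C1q chain genes (y axis, from 0) in each library of the 4 groups (x axis), with points for libraries, black bars for the mean ± SD and a dotted line at a ratio of 1. C1qb over C1qa was 1.37 to 2.15 in the 8 IRR(-/-) libraries and 0.92 to 1.38 in the 8 wild-type libraries.

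The response to the alkali load was read within each genotype. None of the 9 markers passed in IRR(-/-) mice or in wild type, against 0.0232% and 0.139% of all genes, and none had an unadjusted p under 0.05, against 7.99% and 12.0% of all genes (limma). Drinks did not overlap for 0 of 9 in either genotype, against 5.66% and 5.86% of all genes. In the mean of both genotypes, added after the values had been seen, 0 of 9 passed, against 0.440% of all genes. At an unadjusted p under 0.05 the count was 0 of 9, against 11.3%, and groups did not overlap for 0 of 9, against 0.0927%. In IRR(-/-) mice the log2 changes ran from -0.25 for C1qa to 0.11 for Cd68, with a median of 0.03 beside 0.01 over all genes and adjusted p from 0.757 to 0.994. In wild type they ran from -0.39 for Laptm5 to 0.13 for Lyz2, with a median of -0.08 beside -0.01 over all genes and adjusted p from 0.528 to 0.944. The 95% intervals of all 9 lay within 0.65-fold and 1.45-fold in IRR(-/-) mice. In wild type they lay within 0.70-fold and 1.47-fold, apart from Laptm5 at 0.55-fold to 1.06-fold. The Laptm5 value rested on 1 library: without wild-type water replicate 2 it was -0.12, and Csf1r, at -0.22, was then the lowest. With all 16 libraries, no interval of these markers reached a 2-fold response in either genotype.

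Lyz2, Cd68 and Ptprc illustrate the size of these responses. Ptprc was at 2.35, 2.41, 3.20 and 2.50 RPKM on bicarbonate and 3.61, 2.68, 2.54 and 2.47 RPKM on water in IRR(-/-) mice. In wild type it was at 3.52, 2.88, 2.52 and 3.24 RPKM on bicarbonate and 3.28, 3.62, 3.27 and 3.15 RPKM on water. The drinks overlapped in both genotypes. The log2 change to bicarbonate was -0.10 ± 0.14 in IRR(-/-) mice and -0.14 ± 0.14 in wild type for Ptprc (SE), 0.11 ± 0.20 and 0.13 ± 0.20 for Lyz2, and 0.11 ± 0.20 and 0.08 ± 0.20 for Cd68, each in that order of genotypes.

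The interaction, which is the change to bicarbonate in IRR(-/-) mice minus that in wild type, was past the threshold for none of the 9, against 0.0155% of all genes. None had an unadjusted p under 0.05, against 8.19% of all genes (limma, adjusted p from 0.743 to 0.992). With all 16 libraries the values ran from -0.30 ± 0.24 for C1qa to 0.41 ± 0.31 for Laptm5 (SE). Without wild-type water replicate 2, the library with 14.7 RPKM, Laptm5 stood at 0.15, below Csf1r at 0.29. With that library, the interval for Laptm5 reached 2.11-fold, so a 2-fold difference between the responses was not outside it.

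Within groups the markers varied together to differing degrees. Each log2 value was centred on the mean of its group, and the deviations were compared across the 16 libraries. Wild-type bicarbonate replicate 3 lay below its group mean for 9 of 9 markers, by 0.25 on average on the log2 scale. In wild type on water, replicates 1 and 2 lay above the group mean for 7 and 8 of the 9 and replicates 3 and 4 below it for 8 and 7. C1qc followed the mean of the other markers most closely (Pearson r = 0.82, n = 16 libraries, given as a description), Laptm5 had r = 0.31 and Csf1r r = -0.09. The closest pair was C1qc and Adgre1 (r = 0.82), and the chain genes C1qa and C1qb had r = 0.59. These libraries share the authors' scaling, and centring removes the differences between groups.

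**Figure D4:**
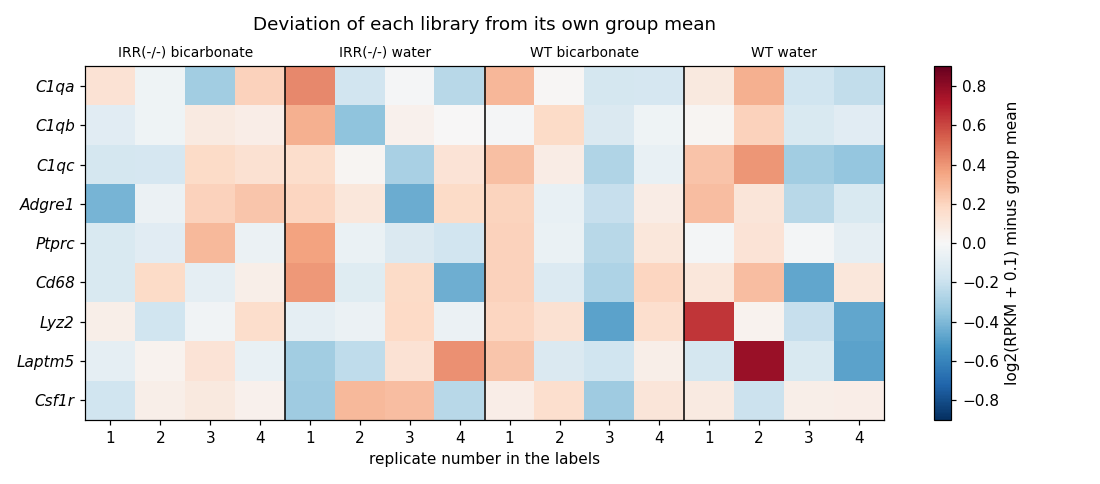
Deviation of each library from its own group mean in log2(RPKM + 0.1), in colour from blue (below) to red (above), for the 9 markers (rows) and the 16 libraries (columns, by group and replicate number). The column of wild-type bicarbonate replicate 3 is blue for 9 of 9 markers. Csf1r, in the bottom row, had r = -0.09 with the mean of the other markers over the 16 libraries.

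The genes outside the 10 whose centred values were most like the mean of the 9 markers were ranked over the 16 libraries. They were led by Mmd, a membrane protein first described in maturing macrophages, with r = 0.92 at a mean level of 26.7 RPKM. Next came the flippase gene Atp8b4 (r = 0.89), the Wnt inhibitor gene Dkk2 (r = 0.87), Cd274, which encodes the checkpoint ligand PD-L1 (r = 0.86), the interferon-induced GTPase gene Igtp (r = 0.85) and the myeloid receptor gene Slamf9 (r = 0.85). The list was completed by Mid1, 5730409E04Rik, Plpp7 and Fbxo6, with r from 0.83 to 0.84. As the highest values among all 12943 genes tested, these r are high in part through the ranking. They are a description without a test, and the cells that make these genes were not examined.

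Genes on 10 other lists were read beside the markers, and 72 of them were tested. The lists hold leukocyte markers and DAP12 partners, and also complement, growth factor, chemokine and adhesion genes. These last are not leukocyte markers, so the pooled counts and medians are not values of leukocytes alone. Between drinks none of the 72 passed in either genotype, against 0.0232% of all genes in IRR(-/-) mice and 0.139% in wild type (limma). At an unadjusted p under 0.05 there were 6 in IRR(-/-) mice, against 7.99% of all genes, and 7 in wild type, against 12.0%. Between genotypes 6 were higher and 1 lower in IRR(-/-) mice on water, with a median log2 difference of 0.01, and 5 were higher and 0 lower on bicarbonate, with a median of 0.09. Those shares are below the 21.9% and 18.4% of all genes. Of 22 other markers of mononuclear phagocytes, 17 were tested and 2 were higher on water and 1 on bicarbonate, with medians of 0.07 and 0.11. Of 15 pan-leukocyte genes, 13 were tested and 2 were higher on water and 1 on bicarbonate, with medians of 0.06 and -0.09. Few lymphocyte markers could be tested: 3 of 16 genes of T and NK cells and 2 of 10 of B and plasma cells were tested, and 0 passed in any comparison, with 0 at an unadjusted p under 0.05. The 4 dendritic cell markers tested gave 0 calls as well, with 1 at an unadjusted p under 0.05 in wild type between drinks, 1 between genotypes on bicarbonate and 1 in the interaction. Of 12 partners and signalling genes of DAP12, the adaptor that Tyrobp encodes, 3 were tested and 0 passed, with 1 at an unadjusted p under 0.05 in wild type between drinks and 1 between genotypes on water.

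Lsp1, a cytoskeletal protein of leukocytes, was called on both drinks. It was at 4.97, 3.43, 6.00 and 4.63 RPKM in IRR(-/-) mice on bicarbonate, against 2.29, 2.18, 2.38 and 2.91 RPKM in wild type on bicarbonate. On water it was at 6.71, 4.30, 8.63 and 5.39 RPKM in IRR(-/-) mice, against 3.33, 2.06, 2.89 and 2.10 RPKM in wild type. No library of one genotype overlapped with the other on either drink, where 22.8% of all genes on bicarbonate and 23.8% on water showed no overlap. Lsp1 and the genes named after it were picked for a small p between genotypes. A lack of overlap between genotypes in them is therefore no separate support. In limma the log2 difference on bicarbonate was 0.92 ± 0.22 (SE, adjusted p = 0.00943). That on water was 1.22 ± 0.22 (adjusted p = 0.00106), and Lsp1 was called under all 19 alternatives on each drink.

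Cd52, a small surface glycoprotein of lymphocytes and monocytes, was at 11.2, 9.02, 7.61 and 8.42 RPKM in IRR(-/-) mice on water, against 3.29, 4.45, 3.42 and 3.80 RPKM in wild type on water. The groups did not overlap, where 23.8% of all genes showed no overlap, and limma gave a log2 difference of 1.25 ± 0.21 (SE, adjusted p = 0.000672). On bicarbonate it was 0.61 ± 0.21 (adjusted p = 0.0586), and it passed there under 4 of 19 alternatives, without wild-type replicate 1 (0.0290) or IRR(-/-) replicate 1 (0.0109), with quantile normalization (0.0464) and with array weights (0.0253). Fcer1g, the common gamma chain of Fc receptors and a signalling adaptor of macrophages, averaged 8.83 ± 1.01 RPKM in IRR(-/-) mice and 6.21 ± 0.847 RPKM in wild type on water (SD, n = 4 each). Its log2 difference was 0.38 ± 0.11 on bicarbonate (SE, adjusted p = 0.0241). The value on water was 0.50 ± 0.11 (adjusted p = 0.00408). Cd52 and Fcer1g have short transcripts of 514 and 683 nt, and genes of up to 1000 nt had a median log2 difference of 0.38 on water. With the trend on length and GC content removed, Cd52 stood at 0.60 (adjusted p = 0.0828) and Fcer1g at 0.01 (adjusted p = 0.962) on water, and on bicarbonate Cd52 at 0.19 (adjusted p = 0.614) and Fcer1g at 0.09 (adjusted p = 0.628). The call of Fcer1g on bicarbonate was also lost without wild-type replicates 1 and 4 and IRR(-/-) replicates 3 and 4, at adjusted p from 0.0545 to 0.0739.

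Ly86, the partner of the receptor RP105 on B cells and macrophages, had a log2 difference of 0.70 ± 0.24 on water (limma adjusted p = 0.0490), a call lost under 9 of 19 alternatives. The losses included each library left out other than wild-type replicate 1 and IRR(-/-) replicate 4, with adjusted p from 0.0584 to 0.145. On bicarbonate the difference of Ly86 was 0.14 ± 0.24 (adjusted p = 0.731), and its interaction did not pass (adjusted p = 0.686). Ccl5, a chemokine gene of T cells and macrophages, was at 5.99, 5.49, 3.42 and 7.78 RPKM in IRR(-/-) mice on water, against 0.74, 2.47, 0.98 and 2.40 RPKM in wild type on water. Its log2 difference on water was 1.83 ± 0.41 (SE, limma adjusted p = 0.00469). The value for bicarbonate, 0.74 ± 0.41, did not pass (adjusted p = 0.233). No library overlapped on water, where 23.8% of all genes showed no overlap. Its longest transcript is short, at 668 nt, and 48.2% of genes of up to 1000 nt were called on water. The call there held under all 19 alternatives, the removed length and GC trend among them, with log2 differences from 1.31 to 2.08.

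**Figure D5:**
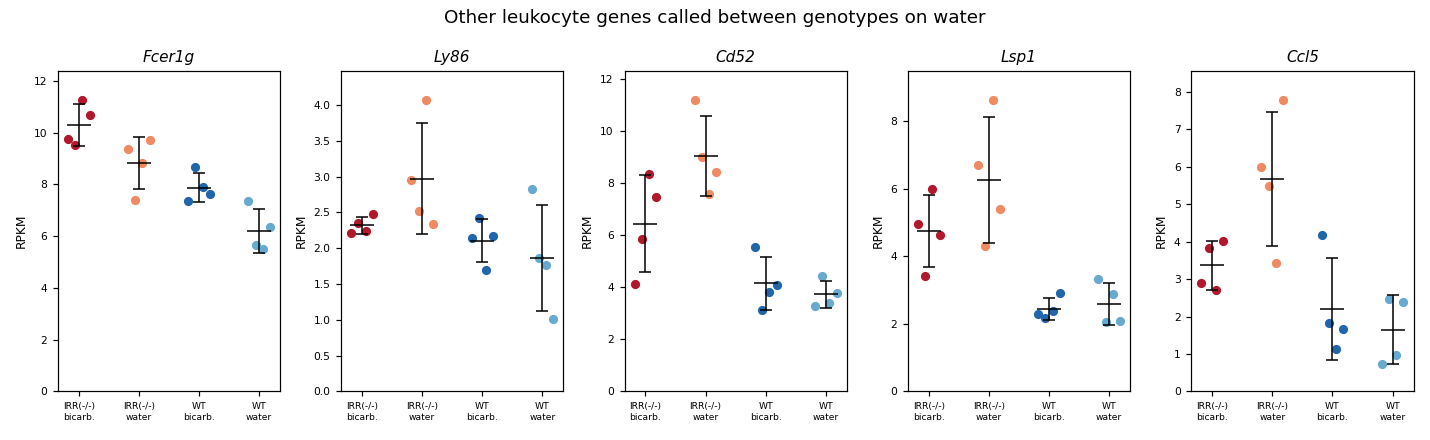
RPKM (y axis, from 0) of 5 other leukocyte genes called between genotypes on water, in each library of the 4 groups (x axis), with points for libraries and black bars for the mean ± SD. Lsp1 lay between 3.43 and 8.63 RPKM in the 8 IRR(-/-) libraries and between 2.06 and 3.33 RPKM in the 8 wild-type libraries.

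Of 15 complement genes tested, 1 was called higher and 1 lower on water, a share below the 21.9% of all genes. On bicarbonate 1 was called higher, a share below the 18.4% of all genes. Cd59a, which blocks the membrane attack complex on the cell's own surface, averaged 61.2 ± 1.90 RPKM in IRR(-/-) mice and 41.7 ± 8.13 RPKM in wild type on bicarbonate, and 59.9 ± 5.39 RPKM and 39.1 ± 3.10 RPKM on water in the same order (SD, n = 4 each). In limma the log2 difference on bicarbonate was 0.57 ± 0.11 (SE, adjusted p = 0.00200). That on water was 0.61 ± 0.11 (adjusted p = 0.000952). Cfi, the protease that inactivates C3b, was lower on water, at 3.72 ± 1.09 RPKM in IRR(-/-) mice and 7.17 ± 1.34 RPKM in wild type (log2 difference -0.95 ± 0.20, adjusted p = 0.00356), and had a log2 difference of -0.16 ± 0.20 on bicarbonate (adjusted p = 0.640). The interaction did not pass for Cfi, Cd52 or Ccl5, which passed on water and, in the fit of all libraries, not on bicarbonate (adjusted p = 0.522, 0.605 and 0.632). Between drinks 0 complement genes passed, with 4 of 15 at an unadjusted p under 0.05 in IRR(-/-) mice, against 7.99% of all genes, and 1 of 15 in wild type, against 12.0%.
Among 7 tested genes of CSF1R ligands and related growth factors, Tgfb1 was higher in IRR(-/-) mice on bicarbonate (0.95 ± 0.31, adjusted p = 0.0466), and among 8 genes of chemokines and adhesion so was Cxcl12 (0.50 ± 0.16, adjusted p = 0.0464). Both calls were lost with most single libraries left out, at adjusted p from 0.0507 to 0.118 without 7 libraries for Tgfb1 and from 0.0675 to 0.138 without 6 libraries for Cxcl12. Tgfb1 was called under 11 of 19 alternatives and Cxcl12 under 9. On water the log2 differences were 0.41 for Tgfb1 and 0.19 for Cxcl12 (limma adjusted p = 0.387 and 0.438). The interaction passed for neither gene (adjusted p = 0.764 and 0.743).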

How the data were processed

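The deposited values are RPKM per gene and library, made by the authors; per the submitters' processing notes Salmon 1.5.2 and edgeR 3.34.0 were used, and GRCm39 and mm10 are named with no role. The gene lengths, scaling and filter behind the table are not given in the sources used here. Sequencing depth is unknown here, so no counting error can be given.

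All 13430 gene IDs matched a symbol in GENCODE M21 (GRCm38), which also gave positions, the length of the longest transcript and GC content. Genes with at least 0.5 RPKM in at least 4 of 16 libraries were tested (12943 genes), leaving 487 out. Values as log2(RPKM + 0.1) were fitted with limma 3.58.1 (R 4.3.3), using trended and robust variance, in 1 fit of the 4 group means with 12 residual degrees of freedom. Adjusted p is Benjamini-Hochberg over all genes tested in a comparison, two-sided, with a threshold of 0.05. Log2 differences understate the change of low genes. Intervals are moderated 95% intervals. The procedure was also run on simulated data with independent noise for each gene and library. Those data held no shared library effect or length trend, so that run does not measure its power here.

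The members and gene lists were chosen with earlier results of these data known. Values are given for the members, and from each other list for at most 4 genes past the threshold with the smallest p; values of lists of other cell types are given only where a result touches them. Alternatives were other pseudocounts, filters, scalings and variance settings, a removed length and GC trend, a replicate block and each library left out. Averages over drinks or genotypes were added after seeing the data. Same-numbered libraries did not pair, and no 2 libraries of a group were alike enough to be 1 library (median difference of at least 0.152 log2 units).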

Additional observations from a re-analysis of the deposited data

Results flagged for a closer look

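In 4 of the 36 sets of 4 libraries, formed by 9 markers and 4 groups, the highest or lowest library stood apart from the other 3 by more of the group's range than Dixon's 95% critical value allows, where chance gives about 1 in 20. Lyz2 was highest in IRR(-/-) water replicate 3, at 9.85 RPKM with the nearest library at 8.39 RPKM. Lyz2 was lowest in wild-type bicarbonate replicate 3, at 9.68 RPKM with the nearest at 15.0 RPKM, the library that was also below its group mean for 9 of 9 markers. Csf1r was lowest in wild-type water replicate 2, at 12.3 RPKM with the nearest at 14.6 RPKM. Adgre1 was lowest in IRR(-/-) water replicate 3, at 0.968 RPKM with the nearest at 1.47 RPKM.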

How the results depend on the processing

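The number of markers called was 0 in each comparison of drinks and in the interaction under all alternatives run. Between genotypes on bicarbonate it was 1 with array weights, and 0 to 1 with single libraries left out. On water it was 0 to 1 with single libraries left out and 0 under the 11 other alternatives. With the replicate number as a replicate block it was 0 in all 5 comparisons. That block paired nothing: the deviations of same-numbered libraries correlated at -0.05 to 0.10. Over 927 values of single markers under these alternatives, 5 calls were gained. No marker was called in these comparisons as reported, so no call could be lost. A reversal was counted only where a difference was called, and there were 0. Signs of uncalled differences did turn. Csf1r between genotypes on bicarbonate (-0.01) turned under 5 of 19 alternatives, and Lyz2 in the interaction (-0.02) under 8 of 27. Among the averages over drinks or genotypes, 4 calls were gained and 1 lost. C1qa passed with the length and GC trend removed (-0.39, adjusted p = 0.0214), and C1qb passed with quantile normalization (0.23, adjusted p = 0.0476) and without IRR(-/-) water replicate 2 (0.25, adjusted p = 0.0210), but stood at 0.03 with that trend removed (adjusted p = 0.855). The number of all genes called between drinks in wild type was 18 as reported, 2 with the replicate block and 82 without wild-type bicarbonate replicate 4. The cause of these shifts was not tested. The libraries' depth is unknown, so counting error cannot be set apart from the spread between animals.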
